A study of Mus musculus with 55 samples.

Results

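The genes described here are 217 mouse pseudogenes among the 4113 genes that the study listed as changed in liver after treatment with the mitogen TCPOBOP. They were taken from the annotation column of the listed genes: every gene whose biotype contained the word pseudogene was kept, apart from those whose symbols start with Cyp, Serpin, Saa, Mup, Ugt, Gst, Sult or Ces and apart from Gm45225 and Gm13857. Of 255 listed pseudogenes, 38 were left out in this way. The 217 comprised 114 processed pseudogenes, 48 unprocessed pseudogenes, 45 transcribed pseudogenes and 10 of other biotypes (polymorphic, unitary, translated or without further class). The list of genes changed in livers labelled Setd8-LKO held 212 of them, the list of genes changed in wild-type livers held 32, and 27 stood in both.

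A processed pseudogene is a copy of a spliced mRNA that was reverse transcribed and inserted elsewhere in the genome, usually without the promoter of its source gene. An unprocessed pseudogene comes from duplication of a gene and keeps its introns, and a transcribed pseudogene is either kind with its own evidence of an RNA. Because a young copy is nearly identical to its source gene, a short sequencing read from the source mRNA can be placed on the copy, so that a count at a pseudogene may hold reads of the source gene. Genes with much mRNA in many tissues, such as those for ribosomal proteins, actins, tubulins and glycolytic enzymes, left the most processed copies in mammalian genomes.

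RNA-seq was performed on total liver RNA of male C57Bl6 mice of 45 to 50 days. The WT untreated group had 5 livers and the WT TCPOBOP group had 5 livers, collected 24 h after 3 mg/kg TCPOBOP, an agonist of the nuclear receptor CAR that drives hepatocytes to divide. The Setd8-LKO TCPOBOP group had 4 livers with the same treatment from Setd8 lox/lox-AlbCre mice, in which Cre driven by the albumin promoter deletes a floxed exon 7 in hepatocytes. Setd8 (also Kmt5a) monomethylates lysine 20 of histone H4. No untreated Setd8-LKO livers were part of the RNA-seq, so genotype and treatment cannot be told apart in the Setd8-LKO comparison, and both comparisons used the same 5 WT untreated livers. The labels call these controls untreated, while the methods name corn oil and a reporting form names DMSO as mock treatment. The paper describes these livers as biological replicates of the same collection date, and p-values measure the spread between these samples. The file headers name runs A and B, which were spread unevenly over WT untreated and Setd8-LKO, and the main test did not model the run.

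Short windows of the source genes and their copies show how alike the copies are. The first set is Fdps, which makes farnesyl diphosphate in the sterol pathway, with its 4 listed processed copies, because these copies separated the treated groups most clearly. Each line holds 60 coding bases of GRCm38, read 5′ to 3′ on the strand of the gene, and capitals mark bases of a copy that differ from the source gene. Fdps lies on the minus strand at chr3:89094245-89094304. The copies lie at chr10:93779445-93779504 (Gm3571, plus strand), chr6:6735644-6735703 (Gm5873, minus strand), chrX:60726604-60726663 (Gm8163, minus strand) and chr13:68857286-68857345 (Gm7979, plus strand).
Fdps: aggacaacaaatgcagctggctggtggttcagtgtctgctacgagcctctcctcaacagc
Gm3571: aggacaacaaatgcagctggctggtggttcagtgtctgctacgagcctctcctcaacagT
Gm5873: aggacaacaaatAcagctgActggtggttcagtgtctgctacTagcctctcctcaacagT
Gm8163: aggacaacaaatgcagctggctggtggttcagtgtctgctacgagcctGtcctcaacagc
Gm7979: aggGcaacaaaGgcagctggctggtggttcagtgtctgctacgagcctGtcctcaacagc

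The next set holds sources whose copies rose with them or could not be distinguished from them. Ccnb1 encodes cyclin B1, which drives entry into mitosis, and Idi1 encodes the isomerase that makes dimethylallyl diphosphate for sterols. The windows are chr13:100783588-100783647 (minus strand) for Ccnb1, chr7:42106772-42106831 (minus) for Ccnb1-ps, chr4:118942939-118942998 (minus) for Gm12856, chr13:8886763-8886822 (plus) for Idi1 and chr2:53696745-53696804 (minus) for Gm13502. The Gm13502 window has 0 differences from Idi1, and its whole exon sequence was 100% identical to the Idi1 transcript.
Ccnb1: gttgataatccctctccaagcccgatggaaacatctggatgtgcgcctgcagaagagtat
Ccnb1-ps: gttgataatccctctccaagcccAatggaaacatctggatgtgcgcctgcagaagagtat
Gm12856: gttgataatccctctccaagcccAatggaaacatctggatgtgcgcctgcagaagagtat
Idi1: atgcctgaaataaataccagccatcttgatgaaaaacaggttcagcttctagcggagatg
Gm13502: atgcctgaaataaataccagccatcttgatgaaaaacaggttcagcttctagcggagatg

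The last set holds copies of genes that were not themselves listed, shown because their counts moved far while the source gene stayed off the list. Rplp0 is a ribosomal stalk protein, Ldha is lactate dehydrogenase A, Gapdh is a glycolytic enzyme and Bod1 is a kinetochore protein. The source windows are chr5:115561115-115561174 (Rplp0, plus), chr7:46850941-46851000 (Ldha, plus), chr6:125163253-125163312 (Gapdh, minus) and chr11:31671591-31671650 (Bod1, minus). The Rplp0 copies lie at chr8:102865405-102865464 (Gm8730, minus), chr2:152353947-152354006 (Gm14165, plus), chrX:144233188-144233247 (Gm8199, minus) and chr7:3285081-3285140 (Gm5340, minus). The other copies lie at chr2:15397199-15397258 (Gm13365, plus), chr4:10439262-10439321 (Gm11814, minus), chr1:151136536-151136595 (Gm8941, plus) and chr16:17734230-17734289 (Bod1-ps, plus).
Rplp0: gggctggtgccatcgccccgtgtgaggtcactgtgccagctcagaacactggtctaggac
Gm8730: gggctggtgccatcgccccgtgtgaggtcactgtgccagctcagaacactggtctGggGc
Gm14165: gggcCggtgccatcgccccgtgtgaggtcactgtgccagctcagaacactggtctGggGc
Gm8199: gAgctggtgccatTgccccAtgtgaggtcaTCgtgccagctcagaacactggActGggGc
Gm5340: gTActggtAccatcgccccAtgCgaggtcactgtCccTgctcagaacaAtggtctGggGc
Ldha: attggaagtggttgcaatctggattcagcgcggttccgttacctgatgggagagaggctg
Gm13365: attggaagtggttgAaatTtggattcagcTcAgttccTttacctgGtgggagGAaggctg
Gm11814: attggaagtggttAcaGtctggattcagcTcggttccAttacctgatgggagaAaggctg
Gapdh: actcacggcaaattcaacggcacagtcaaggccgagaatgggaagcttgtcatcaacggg
Gm8941: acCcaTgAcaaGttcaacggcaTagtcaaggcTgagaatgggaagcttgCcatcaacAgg
Bod1: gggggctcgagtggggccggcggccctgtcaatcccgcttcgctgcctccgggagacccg
Bod1-ps: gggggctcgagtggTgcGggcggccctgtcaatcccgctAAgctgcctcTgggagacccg

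The pseudogenes held between 2.29% and 2.94% of all reads counted on listed genes in the WT untreated libraries and between 2.54% and 2.94% in the libraries labelled Setd8-LKO. The reads on listed genes were 11238950 to 12780869 per WT untreated library and 5734065 to 8231255 per library labelled Setd8-LKO, and the authors' scaling factors were 1.03 to 1.25 and 0.752 to 0.855, respectively. The table of the WT TCPOBOP comparison held 1389901 to 1849046 reads per WT untreated library and 2609310 to 3706582 per WT TCPOBOP library. The targeted gene went against its label, since its normalized counts (as Kmt5a) rose from 563 to 761 in WT untreated to 1313 to 1465 under the Setd8-LKO label, and these counts, taken over all exons, do not check the deleted one. Setd8-LKO stands for this label in all that follows. Hepatocyte markers were lower in these libraries (4 of 6 listed, all 4 lower; summed normalized count 1051211 to 1776187 in WT untreated and 440293 to 619271), and in bulk liver fewer cells of a type and less RNA per cell cannot be told apart. Bile duct markers were all listed and summed to 147 to 197 and 358 to 823 (3 of 4 higher), collagen genes of stellate cells rose (2 of 5 listed; 260 to 640 and 1300 to 3816), Marco was the only Kupffer cell marker listed of 4 (73 to 272 and 304 to 489), and 0 of 7 leukocyte and 0 of 5 endothelial markers were listed. Alas2, the only erythroid marker listed of 4, had 1694 to 3148 and 182 to 443. The part of these cell types in the changes below was not tested.

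In Setd8-LKO TCPOBOP livers, 198 of the 212 pseudogenes passed the filter on low counts and 182 of them were called changed (91.9%), with 96 higher and 86 lower than in WT untreated. Among all 3726 tested genes of this list 92.4% were called, since the list itself had been chosen by the study on these same libraries, so the count describes the list and is no independent evidence. A gene was called at an edgeR adjusted p under 0.05 with a log2 fold change of at least 1 in either direction. Higher calls made up 48.5% of the tested pseudogenes and 55.0% of all tested genes (55.4% of those that are not among the pseudogenes), and lower calls 43.4% and 37.4%. The median log2 fold change was 1.04 over the pseudogenes and 1.16 over all tested genes.

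Higher and lower calls were spread unevenly over the classes. Processed copies were called in 104 of 109 cases (64 higher, 40 lower, median log2 fold change 1.10), transcribed pseudogenes in 38 of 39 (21 higher, 17 lower, median 1.12) and unprocessed pseudogenes in 33 of 41 (9 higher, 24 lower, median -1.30). Of 9 tested pseudogenes of other biotypes, 2 were called higher and 5 lower. The difference between classes was not tested, because the genes are not replicates of a class.

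In WT TCPOBOP livers, 29 of 32 pseudogenes were tested and 22 were called (75.9%, against 78.1% of all 679 tested genes), with 18 higher and 4 lower. The median log2 fold change was 1.54, and 1.35 over all tested genes. Processed copies gave 11 higher and 3 lower calls of 15 tested, transcribed pseudogenes 5 higher and 1 lower of 8, and unprocessed pseudogenes 2 higher of 6. The split between higher and lower calls rests on the authors' scaling. With size factors estimated from the listed genes (DESeq2), all log2 fold changes moved by a median of -0.82 in the Setd8-LKO comparison and by -1.17 in the WT TCPOBOP comparison, and the calls became 26 higher and 96 lower, and 1 higher and 6 lower. With TMM factors (edgeR) they were 97 higher and 89 lower, and 1 higher and 6 lower. Both sets of factors were estimated from genes that had been selected as changed. The median log2 fold change over all tested genes became 0.30 and 0.16 with DESeq2 factors and 1.16 and 0.076 with TMM factors, in the same order. Calls lost under these factors, here and below, therefore cannot decide which scaling is closer to the truth.

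**Figure D1:**
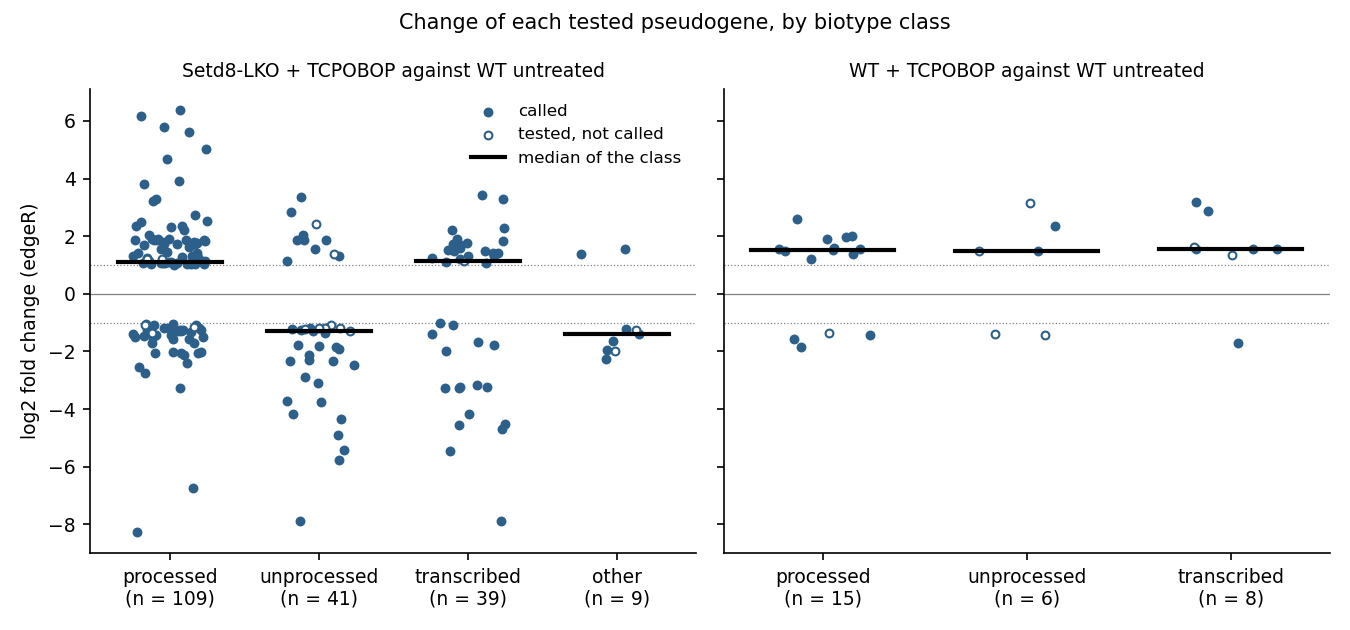
Log2 fold change of each tested pseudogene (edgeR, y axis) by biotype class (x axis), for Setd8-LKO TCPOBOP (left, 198 genes) and WT TCPOBOP (right, 29 genes), each against WT untreated. Filled points are called, open points are tested and not called, bars are class medians, and dotted lines mark a log2 fold change of 1 in either direction. The unprocessed median lies at -1.30 on the left while the processed and transcribed medians lie at 1.10 and 1.12.

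The summed counts of a class were carried by few genes. Unprocessed pseudogenes summed to 196249 ± 22291 normalized counts (SD, n = 5) in WT untreated and 58605 ± 16700 (SD, n = 4) in Setd8-LKO, with no overlap (168524 to 227571 and 42562 to 73959). Gm8893, a copy of the antitrypsin gene Serpina1a, took most of this sum, and without it the sums were 19183 ± 1888 and 9720 ± 651. Transcribed pseudogenes summed to 45507 ± 5734 and 25506 ± 1867, but without the 2 genes of the highest counts to 11723 ± 2253 and 14585 ± 866. This remainder held Gm18252, with means of 1417 and 6496, a larger rise than that of the sums. The direction therefore turned on these 2 genes and on Gm18252. The reads of Gm18252 are nearly those of Gm8834, which is counted in the processed class. Processed pseudogenes summed to 69789 ± 6352 and 58044 ± 2859. Without Gm5424, a copy of the urea cycle gene Ass1, the sums were 43912 ± 5076 and 48797 ± 1988 and overlapped. Gm8834 alone had means of 1415 and 6494 within this remainder, a larger rise than that of the sums. Without both Gm5424 and Bhmt-ps1 the sums were 31950 ± 2285 and 47562 ± 1960 with no overlap, so the direction of the processed sum depended on few genes. Taken as a share of all reads on listed genes, the processed class made up 0.544% in WT untreated and 1.12% in Setd8-LKO.

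Of the 32 pseudogenes of the WT TCPOBOP list, the transcribed class rose from 3891 ± 718 to 17570 ± 2762 (SD, n = 5 each), with 2852 to 4758 and 14725 to 22177 per library. Most of this was Gm7208, and without it the sums were 2663 ± 511 and 6266 ± 1223. Gm18252, which shares its reads with Gm8834 of the processed class, had means of 1417 and 4202 within this remainder. The processed class fell from 42538 ± 5864 to 24487 ± 2496, of which Gm5424 was the larger share, and without it the sums were 16661 ± 3592 and 15749 ± 2403 and overlapped. Without Gm5424 and Bhmt-ps1 they were 4699 ± 606 and 12428 ± 1084 with no overlap, so the direction turned on these 2 genes.

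Which mRNA a pseudogene was copied from was read from sequence. The exon sequence of each pseudogene was aligned to all protein-coding transcripts, and a source gene was assigned at an identity of at least 90% over at least 50% of the exons, which held for 138 of 217 (92 of 114 processed, 26 of 48 unprocessed, 18 of 45 transcribed and 2 of 10 others). In the Setd8-LKO list 135 pseudogenes had a source gene, from 96 different genes. For 83 of them the source gene was on the list too, and in 81 pairs both were tested.

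The copy and its source moved in the same direction in 81 of 81 pairs, with 39 pairs higher and 42 lower. Among all tested genes 2195 were higher and 1531 lower, and both members of a pair had to pass the study's own selection. The log2 fold change of the copy differed from that of the source by a median of 0.0951, and by more than 1 in 3 pairs. In the WT TCPOBOP comparison the direction was shared in 16 of 16 pairs (13 higher, 3 lower), with a median difference of 0.0380 and 1 pair apart by more than 1. Some pairs repeat a source gene, among them 6 with Actg1, 5 with Hmgb2 and 4 with Fdps in Setd8-LKO, and 4 with Fdps in WT TCPOBOP. Pairs of 1 source gene are not separate observations, here or in the counts by shared words below.

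Likeness of copy and source was described by the share of 50-base words of the copy found without a mismatch in the source transcript. An aligner can place reads with mismatches, so this share does not measure how many source reads a copy received, even where it is 0%. Direction was shared in 23 of 23 pairs with over 0 to 25% of words in common, 42 of 42 with over 25 to 75%, and 16 of 16 with over 75%, and the median differences were 0.0964, 0.115 and 0.0656. How reads with more than 1 possible place were counted is not given in the sources used here, and neither is the read length, so the origin of the reads was not tested.

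**Figure D2:**
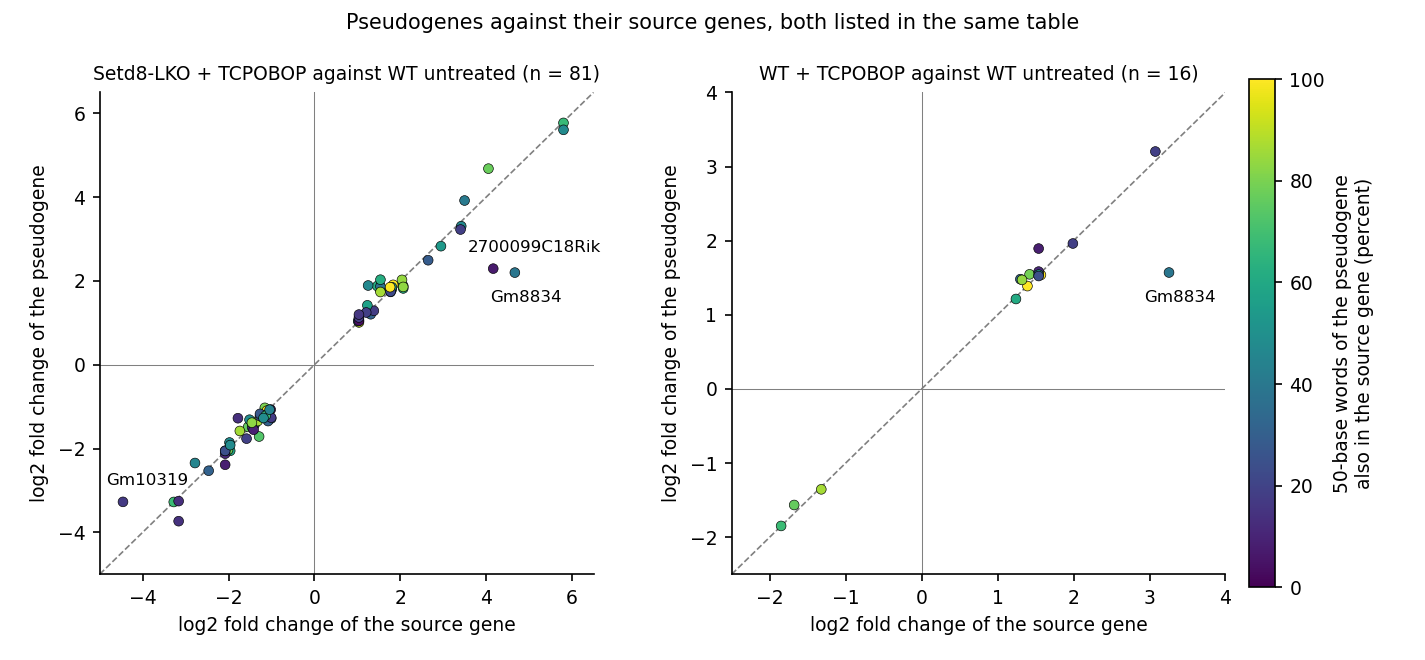
Log2 fold change of each pseudogene (y axis) against that of its source gene (x axis), where both were tested, for Setd8-LKO TCPOBOP (left, 81 pairs) and WT TCPOBOP (right, 16 pairs), each against WT untreated. The dashed line marks equal change and the colour gives the percent of 50-base words shared with the source. Points follow the line, and the named pseudogenes are those that differ from their source by more than 1.

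The copies of Fdps show the relation at 4 levels of likeness. Gm3571 (52.8% of words shared) held 24.9 to 30.2% as many counts as Fdps in WT untreated, and 26.5 to 30.2% in Setd8-LKO. Gm5873 (23.9% of words) held 7.21 to 8.55% and 6.47 to 9.31%. Gm8163 (11.2% of words) held 0.433 to 0.603% and 0.366 to 0.649%, and Gm7979 (8.50% of words) held 0.342 to 0.551% and 0.235 to 0.657%. The ratio of each copy to Fdps overlapped between the groups although the counts themselves did not. Gm13502, which shared 100% of its words with Idi1, held 21.4 to 23.8% of the Idi1 count in WT untreated, 22.4 to 24.3% in Setd8-LKO and 21.1 to 24.6% in WT TCPOBOP. These ratios are of counts not divided by gene length.

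Copies of cytoskeleton genes were higher in livers labelled Setd8-LKO. All 6 copies of Actg1 (cytoplasmic gamma-actin) had log2 fold changes of 1.01 to 1.20, and 5 were called. Gm12715, on chromosome 4, had 1076, 1027, 1376, 1326 and 896 normalized counts in WT untreated and 2617, 2792, 1946 and 1827 in Setd8-LKO (log2 fold change 1.01 ± 0.19 SE, adjusted p = 0.00208). Every Setd8-LKO library was above every WT untreated library, and Actg1 itself changed by 1.04. Gm8543 was the copy that was not called, with 4, 5, 10, 3 and 13 counts against 16, 16, 20 and 14 (log2 fold change 1.20, adjusted p = 0.0626).

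Tubulin copies followed the same direction. Tubb4b-ps1 had 784, 938, 910, 974 and 787 normalized counts in WT untreated and 2944, 2970, 2747 and 3065 in Setd8-LKO, a log2 fold change of 1.74 ± 0.13 beside 1.77 for Tubb4b, a beta-tubulin. The lowest treated library was far above the highest untreated one. Tubb4b-ps2 (1.74) and Gm16165 (1.77), the other copies of Tubb4b, changed to the same degree although they shared between 14.3 and 52.4% of their words with it. Tubb2a-ps2 rose most among the tubulin copies, from 99, 120, 257, 107 and 195 to 1009, 933, 675 and 894 (log2 fold change 2.49 ± 0.29, adjusted p = 9.4e-05). Its closest match was Tubb2b, which changed by 2.65.

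The 3 copies of Tuba1b and 2 of Tuba1c were called higher at log2 fold changes of 1.04 to 1.30. These alpha-tubulin genes were not on the list, so their own changes are not known. Of the tubulin genes that were listed, 7 of 7 tested were higher. Krt8-ps, a copy of keratin 8, a filament protein of hepatocytes and bile duct cells, had 513, 574, 589, 693 and 606 counts in WT untreated and 1901, 1860, 1212 and 1389 in Setd8-LKO (log2 fold change 1.42 ± 0.17), and its groups did not overlap. Krt8 changed by 1.23, and the ratio of Krt8-ps to Krt8 was higher in every Setd8-LKO library (16.2 to 17.5%) than in WT untreated (14.5 to 15.2%). With size factors from the listed genes the Actg1, Tuba1b and Tuba1c copies that passed the filter (all but Gm8543) stayed above 0 at 0.17 to 0.47 and were no longer past a log2 fold change of 1. Tubb4b-ps1 (0.92), Tubb4b-ps2 (0.93), Gm16165 (0.94) and Krt8-ps (0.57) also lost their calls with these factors, whereas Tubb2a-ps2 (1.67) stayed past that limit. None of these cytoskeleton copies was on the WT TCPOBOP list.

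Copies of cell cycle genes rose further. Ccnb1-ps had 0, 4, 2, 1 and 4 normalized counts in WT untreated and 124, 93, 171 and 116 in Setd8-LKO (log2 fold change 5.77 ± 0.47, adjusted p = 9.8e-06). Gm12856, the other copy, had 0, 1, 1, 1 and 3 counts and then 72, 47, 88 and 70 (5.61 ± 0.46). Both were close to absent in untreated liver and clearly present in every Setd8-LKO library, and Ccnb1 changed from 7.40 ± 4.45 to 432 ± 102 (log2 fold change 5.80). Neither copy was on the WT TCPOBOP list, where Ccnb1 was listed with 10 to 36 counts per treated library and was not called (log2 fold change 1.66, adjusted p = 0.126).

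Hmgb2, a chromatin protein abundant in dividing cells, had 5 listed copies, 4 of them on chromosome 4 and Gm4739 on chromosome 10. They changed by 1.74 to 2.03 and Hmgb2 by 1.54. Gm4739 had 31, 26, 30, 25 and 38 counts in WT untreated and 101, 101, 89 and 108 in Setd8-LKO, so the groups did not overlap. The 3 copies of Hnrnpa1, an RNA-binding protein, were called at 1.06 to 1.22. Hnrnpa1 was not listed, so its own change is not known. The 2 copies of Pebp1 changed by 1.80 and 1.85 beside 1.80 for Pebp1. With DESeq2 size factors from the listed genes the copies changed by 0.25 to 0.42 (Hnrnpa1), 0.99 to 1.04 (Pebp1) and 0.92 to 1.20 (Hmgb2).

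2700099C18Rik, a transcribed pseudogene most like the kinetochore gene Ndc80, was among the 3 that departed from their source. It had 14, 18, 10, 17 and 23 counts in WT untreated and 91, 77, 81 and 75 in Setd8-LKO, with no overlap (log2 fold change 2.29 ± 0.25). Ndc80 changed by 4.16, from 4.0 ± 2.5 to 72.5 ± 3.7. The pseudogene shared 7.10% of its words with Ndc80, and it had an H3K27ac and an ATAC-seq peak within 1000 bp in both chromatin lists.

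Copies of sterol pathway genes were the pseudogenes that moved in opposite directions in the treated groups. Of the 27 pseudogenes in both lists, 6 (22.2%) were higher than every WT untreated library in all WT TCPOBOP libraries and lower than every one in all Setd8-LKO libraries, against 30 of 506 genes (5.93%) listed in both. The 6 were the 4 copies of Fdps, the Idi1 copy Gm13502 and Gm6781, a copy of squalene synthase Fdft1. They repeat 3 source genes, so the 6 are not separate observations.

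Gm3571 had 1132, 1318, 642, 1338 and 1313 normalized counts in WT untreated and 3258, 3915, 3438, 3160 and 2950 in WT TCPOBOP. It had 217, 419, 247 and 224 counts in Setd8-LKO TCPOBOP. The 3 groups did not overlap, and the log2 fold changes against WT untreated were 1.54 ± 0.21 (adjusted p = 0.00136) and -2.05 ± 0.28 (adjusted p = 0.000242).

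Gm7979, the least similar Fdps copy, went from 17, 15, 14, 25 and 24 counts in WT untreated to 94, 75, 68, 57 and 63 in WT TCPOBOP and to 2, 5, 2 and 5 in Setd8-LKO TCPOBOP. Its log2 fold changes were 1.89 ± 0.25 and -2.39 ± 0.39. Gm5873 and Gm8163 changed by 1.52 and 1.58 in WT TCPOBOP and by -2.06 and -2.12 in Setd8-LKO, close to Fdps itself at 1.54 and -2.08. The means of the treated groups differed by 3.64 to 4.26 on the log2 scale across the Fdps copies.

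Gm13502 had 837, 901, 563, 1393 and 733 counts in WT untreated, 2138, 2417, 1982, 2461 and 2576 in WT TCPOBOP and 315, 500, 383 and 460 in Setd8-LKO TCPOBOP. Its changes of 1.39 and -1.09 lay beside 1.39 and -1.10 for Idi1, so the copy and the source could not be told apart by their changes. The decrease in Setd8-LKO fell short of the limit of 1 without Setd8-LKO replicate 1 (-0.98) or WT untreated replicate 4 (-0.87). Gm6781 had 149, 155, 108, 246 and 151 counts, then 526, 417, 533, 415 and 367 in WT TCPOBOP and 59, 82, 36 and 62 in Setd8-LKO TCPOBOP. Its changes were 1.48 and -1.44, and those of Fdft1 were 1.30 and -1.40. The size of the increases in WT TCPOBOP rests on the authors' scaling. With size factors from the listed genes (DESeq2) the 6 changes were 0.24 to 0.73, with TMM factors 0.14 to 0.64, and none of the 6 was called under either.

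**Figure D3:**
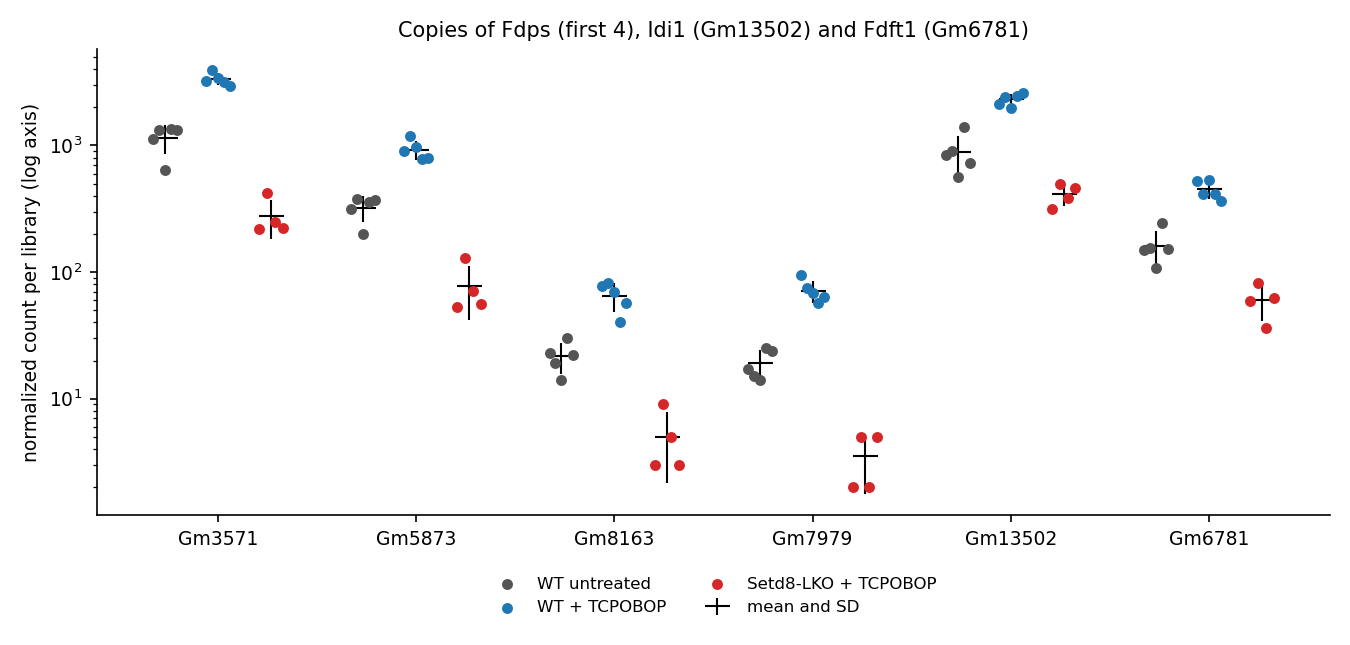
Normalized counts per library (y axis, log scale) of 6 processed pseudogenes (x axis) in WT untreated (n = 5), WT TCPOBOP (n = 5) and Setd8-LKO TCPOBOP (n = 4), with the mean and SD as crosses. In each pseudogene the WT TCPOBOP libraries lie above and the Setd8-LKO TCPOBOP libraries below every WT untreated library.

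Between the treated groups directly, 16 of the 27 pseudogenes did not overlap (59.3%, against 49.8% of the 506 genes in both lists), 13 with higher counts in WT TCPOBOP and 3 with higher counts in Setd8-LKO TCPOBOP. Beside the 6 above, the 7 that were higher in WT TCPOBOP were Gm4956, Gm11212, Bhmt-ps1, Gm7208, Gm6951, Gm50454 and AC158912.1. The 3 that were higher in Setd8-LKO TCPOBOP were Gm5639, Gm6665 and Gm21451.

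Other pseudogenes most like lipid synthesis genes were lower in livers labelled Setd8-LKO. Gm5182, a copy of acetyl-CoA carboxylase Acaca, fell from 560 to 854 counts in WT untreated to 233 to 308 (log2 fold change -1.38 ± 0.18). Gm7049, a copy of malic enzyme Me1, fell from 388 to 673 to 168 to 250 (-1.27 ± 0.21). Gm6951, most like the desaturase gene Scd2 at 85.2% identity, had 604, 921, 1125, 463 and 1468 counts in WT untreated and 76, 69, 23 and 103 in Setd8-LKO (-3.76 ± 0.48), while Scd2 changed by -1.61. In WT TCPOBOP Gm6951 had 413, 510, 421, 195 and 191 counts, overlapped with WT untreated and was not called (log2 fold change -1.40, adjusted p = 0.105).

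Copies of genes that make up much of the hepatocyte's mRNA were lower, beside the lower hepatocyte markers given above. Gm8893 had 160533, 208665, 184890, 150948 and 180294 normalized counts in WT untreated and 33000, 36903, 63447 and 62192 in Setd8-LKO (log2 fold change -1.86 ± 0.28, adjusted p = 0.000444). Serpina1a changed by -1.98, and the exons of Gm8893 were 98.8% identical to it. Gm5424 had 23787, 22586, 32305, 14809 and 35899 counts in WT untreated and 9393, 8049, 7183 and 12361 in Setd8-LKO (-1.48 ± 0.28). In WT TCPOBOP it had 10508, 8499, 9586, 8246 and 6850 (-1.57 ± 0.24), and both treated groups lay below every untreated library and overlapped each other (exact permutation p = 0.698). Ass1 changed by -1.54 and -1.68.

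Bhmt-ps1, which resembles the betaine-homocysteine methyltransferase genes and matched Gm5096 best, had 13159, 15622, 7559, 14148 and 9320 counts in WT untreated and 1548, 1044, 684 and 1663 in Setd8-LKO (-3.28 ± 0.33). In WT TCPOBOP it had 1752, 7088, 2619, 2360 and 2784 (-1.85 ± 0.38, adjusted p = 0.0183). All treated libraries lay below the untreated ones, with WT TCPOBOP replicate 2 close to the lowest of them, and the change without that library was -2.33. The call in WT TCPOBOP was lost without WT TCPOBOP replicate 3, 4 or 5 or WT untreated replicate 2 (edgeR adjusted p 0.0529 to 0.0658). The 2 copies of Ahcy, which hydrolyses S-adenosylhomocysteine, changed by -1.43 and -1.55 beside -1.42 for Ahcy.

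Pseudogenes of the murinoglobulin family, which are plasma protease inhibitors made in liver, lie together on chromosome 6. Mug-ps1 fell from 18616, 14772, 13995, 10518 and 15191 counts to 1101, 958, 2530 and 1532 (-3.26 ± 0.32), and Mug4-ps from 3455 to 8950 to 287 to 557 (-3.73 ± 0.33). Gm10319 fell from 2192 to 4423 to 210 to 567 (-3.27), less than its best match Mug2 (-4.46), and was therefore also 1 of the 3 that departed from their source. Mug1 changed by -3.16. Scp2-ps2, a copy of the sterol carrier gene Scp2, had 17259 to 21397 counts and then 8092 to 10807 (-1.03 ± 0.17), and Scp2 changed by -1.16. Its change came to -0.99, -0.96 and -0.99, short of the limit of 1, without Setd8-LKO replicate 1, Setd8-LKO replicate 2 or WT untreated replicate 2. Gm16332, a complement factor H related copy, had 6425 to 6985 and then 2077 to 3464 (-1.35 ± 0.18). Glo1-ps, a copy of the methylglyoxal-detoxifying enzyme glyoxalase 1, had 320 to 507 and then 131 to 189 (-1.40 ± 0.18, beside -1.45 for Glo1), and none of these groups overlapped.

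Pseudogenes most like glutathione transferase, carboxylesterase and aldose reductase genes were grouped after their values were seen. Gm8834, a processed copy of the glutathione transferase Gstm3 on chromosome 10, had 1228, 1469, 1422, 972 and 1982 counts in WT untreated, 6204, 7292, 5525 and 6955 in Setd8-LKO, and 3897, 3408, 4118, 6020 and 3562 in WT TCPOBOP. The changes were 2.20 ± 0.21 and 1.57 ± 0.23, and every treated library was above the untreated ones. Gstm3 changed by 4.67 and 3.26, so that Gm8834 held 37.7 to 61.1% of the Gstm3 count in WT untreated but 7.60 to 9.23% in Setd8-LKO and 13.2 to 17.4% in WT TCPOBOP. The copy was 97.9% identical to Gstm3 and shared 39.1% of its words with it. Gm18252 spans the place of Gm8834 on the same strand, and their read counts (39370 and 39386 over 9 libraries) were nearly the same, so the pair counts as 1 signal. With DESeq2 size factors or TMM factors from the listed genes, Gm8834 changed by 0.38 or 0.31 in WT TCPOBOP and was no longer called there.

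Gm6665, most like Gstm2, had 172, 182, 85, 76 and 153 counts in WT untreated, 492, 530, 439, 704 and 437 in WT TCPOBOP and 1450, 1359, 919 and 1271 in Setd8-LKO TCPOBOP. The 3 groups did not overlap (1.96 ± 0.28 and 3.23 ± 0.29). Gm12499, an unprocessed pseudogene on chromosome 3 that is also most like Gstm2, rose from 34, 29, 22, 22 and 43 to 99, 150, 169, 243 and 100 in WT TCPOBOP (2.34 ± 0.32) and to 308, 279, 221 and 433 in Setd8-LKO (3.37 ± 0.28). The treated groups overlapped in Gm12499, and Gstm2 changed by 1.99 and 3.40. With the same 2 sets of factors the WT TCPOBOP calls of Gm6665 (0.78 and 0.71) and Gm12499 (edgeR adjusted p = 0.209 and 0.275) were lost.

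The transcribed pseudogenes of the carboxylesterase 2 genes on chromosome 8 rose to different degrees. Gm7208 had 1146, 1327, 1144, 965 and 1558 counts in WT untreated, 11274, 9459, 10708, 13837 and 11242 in WT TCPOBOP (3.20 ± 0.18, adjusted p = 3.25e-06) and 2171, 3128, 3642 and 2718 in Setd8-LKO (1.25 ± 0.19). The groups were separate, with WT TCPOBOP the highest, and Ces2a changed by 3.08 and 1.21. Gm8798 and Gm6831 were called in Setd8-LKO (1.77 and 1.85) but not in WT TCPOBOP (1.35, adjusted p = 0.228, and 1.61, adjusted p = 0.0815), and their treated groups overlapped each other. With adjustment over the listed genes alone both were called in WT TCPOBOP (edgeR adjusted p = 0.00773 and 0.00277). With DESeq2 size factors neither Gm8798 (0.89), Gm6831 (0.99) nor Gm7208 (0.47) was called in Setd8-LKO, while Gm7208 stayed the only pseudogene called higher in WT TCPOBOP with DESeq2 or TMM factors (2.02 and 1.95).

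The 3 copies of the aldose reductase gene Akr1b3 changed by 1.82 to 1.88 in Setd8-LKO beside 2.07 for Akr1b3, and Gm12138 was also called in WT TCPOBOP, from 26 to 35 counts to 58 to 91 (1.21 ± 0.20), but at 0.044 and -0.037 with DESeq2 and TMM factors that call was lost. Cd63-ps, a copy of the tetraspanin gene Cd63, rose from 14, 13, 15, 11 and 18 to 204, 179, 71 and 110 (3.31 ± 0.33). Gm4956, most like the glutathione transferase Gsta4 at 74.2% identity, fell in both treated groups. It had 780, 497, 618, 309 and 730 counts in WT untreated, 100, 123, 216, 272 and 180 in WT TCPOBOP (-1.72 ± 0.33) and 24, 23, 11 and 33 in Setd8-LKO (-4.70 ± 0.39). AC158912.1 rose from 14, 6, 19, 8 and 11 to 144, 47, 113, 70 and 64 in WT TCPOBOP (2.89 ± 0.39). That call was lost with DESeq2 and TMM factors (edgeR adjusted p = 0.068 and 0.0825). In Setd8-LKO AC158912.1 had 17, 23, 41 and 37 (1.32, adjusted p = 0.0267) and overlapped with WT untreated. The Setd8-LKO call was lost without Setd8-LKO replicate 3 or 4 or WT untreated replicate 2, 4 or 5 (edgeR adjusted p 0.0617 to 0.085).

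Some copies of genes that were not listed changed far. Rplp0 was on neither list, so its own change is not known. Its copies changed to very different degrees in livers labelled Setd8-LKO. Gm6278 and Gm9625 changed by 1.10 and 1.14, and Gm8730 by 1.63, from 1136, 1413, 924, 949 and 985 to 3299, 3555, 3450 and 3106 counts. With DESeq2 size factors from the listed genes Gm6278, Gm9625 and Gm8730 changed by 0.28, 0.31 and 0.81, short of the limit of 1. Gm14165 rose from 22, 26, 20, 13 and 14 to 628, 674, 630 and 554 (5.02 ± 0.22, adjusted p = 4.45e-07). It lies inside Gm14164, on the same strand of chromosome 2, and Gm14164 went from 23.8 ± 7.60 to 630 ± 46.6, so the counts at the 2 loci were 3257 and 3317 reads in all and cannot be told apart.

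Gm8199 and Gm5340, with 84.7% and 82.0% identity to Rplp0 and 0% of their words in its transcript, fell short of the identity asked of a source gene. Gm8199 had 0, 1, 0, 0 and 0 counts in WT untreated and 21, 29, 25 and 21 in Setd8-LKO. That was 1 read against 123, a ratio of 111 with a 95% exact interval of 19.5 to 4416 for counting error alone. Gm5340 rose in both comparisons, from 0, 1, 2, 5 and 3 counts to 16, 20, 17, 13 and 11 in WT TCPOBOP (2.60 ± 0.49) and to 16, 12, 20 and 19 in Setd8-LKO (2.75 ± 0.50). All treated libraries were above the untreated ones, and the treated groups overlapped. No ribosomal protein gene was on either list.

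Pseudogenes most like glycolytic enzymes went in both directions. Of 8 glycolysis genes 0 were listed, so their own changes are not known. Gm8941, 87.2% identical to Gapdh and without a shared word, had 241, 230, 186, 387 and 165 counts in WT untreated and 3, 0, 5 and 0 in Setd8-LKO (-6.74 ± 0.65, adjusted p = 2.68e-05). Gm13365, 89.1% identical to Ldha, had 23, 40, 37, 47 and 31 counts in WT untreated and 0 in all 4 Setd8-LKO libraries, which is at least 15.1-fold lower when 3 reads per library are taken as the limit of a count of 0. Gm11814, 88.7% identical to Ldha, went the other way, from 12, 21, 17, 24 and 10 to 242, 189, 262 and 253 (3.81 ± 0.27, adjusted p = 4.71e-06). Both Ldha copies differ from Ldha at many positions in the windows shown above, 8 of 60 bases in Gm13365 and 5 in Gm11814. Gm5345, 90.6% identical to Gapdh, fell from 74 to 99 counts to 20 to 45 (-1.46).

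**Figure D4:**
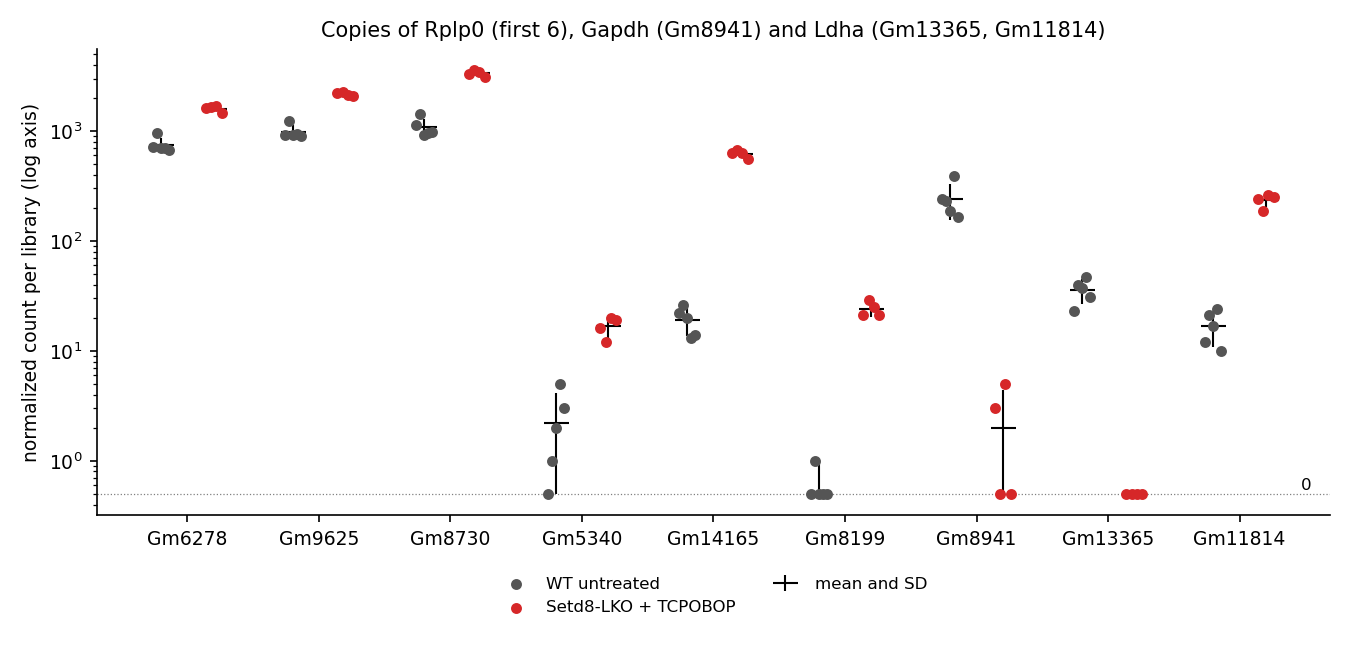
Normalized counts per library (y axis) of pseudogenes most like Rplp0, Gapdh and Ldha (x axis), with the mean and SD as crosses. The y axis is a log scale, with values of 0, lower means and the ends of longer error bars drawn on the dotted line. The groups are WT untreated (n = 5) and Setd8-LKO TCPOBOP (n = 4). Gm8941 and Gm13365 fall to 5 counts or fewer in every Setd8-LKO library, while Gm14165, Gm8199 and Gm11814 rise above every WT untreated library.

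Bod1-ps, 90.9% identical to Bod1, was seen with 1 read in 5 WT untreated libraries and 141 reads in 4 Setd8-LKO libraries (34, 23, 29 and 25 normalized counts). The ratio was 127, with a 95% exact interval of 22.5 to 5058. Gm5639 and Gm8617, on the X chromosome, are copies of the listed genes DXBay18 and Gm5640, which changed by 4.05 and 3.50 in Setd8-LKO, and both copies had higher counts in both treated groups. Gm5639 had 2, 0, 2, 2 and 1 counts in WT untreated, 16, 12, 21, 8 and 15 in WT TCPOBOP and 40, 38, 50 and 39 in Setd8-LKO TCPOBOP (4.68 ± 0.39 in Setd8-LKO). Gm8617 had 1 count in each WT untreated library, 7 to 12 in WT TCPOBOP and 11 to 21 in Setd8-LKO. Both failed the filter on low counts in the WT TCPOBOP comparison and have no test there.

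A cluster on chromosome 4 between positions 42216908 and 42244913 lost its counts in livers labelled Setd8-LKO. Gm5859 and the Gm13301 gene at 42234014 had 15 to 40 and 13 to 44 counts in WT untreated and 0 in every Setd8-LKO library, at least 11.6-fold lower for each. Gm10599 had 34, 15, 23, 29 and 11 counts and then 0, 1, 0 and 1, that is 104 reads against 2 (ratio 57.7, 95% exact interval 15.6 to 482). Gm17081, Gm10600 and the second Gm13301 gene, in the same cluster, had 12 to 32, 6 to 20 and 16 to 43 counts in WT untreated and 0 to 1, 0 to 1 and 1 to 3 in Setd8-LKO. Gm5859, Gm17081, Gm10600 and the Gm13301 gene at 42234014 share 36.3 to 67.8% of their words with the predicted genes Gm2163 and Gm12394, so they are not separate observations. Obox4-ps3, on chromosome 7, fell from 22, 14, 14, 19 and 16 to 1, 0, 0 and 0, or 78 reads against 1 (ratio 86.5, 95% exact interval 15.1 to 3460).

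Not every listed pseudogene held up. In the Setd8-LKO comparison 16 of 198 tested pseudogenes were not called and 14 failed the filter, and in the WT TCPOBOP comparison 7 were not called and 3 failed it. Groups did not overlap in 174 of the 198 (87.9%, against 87.4% of all tested genes) and in 25 of the 29 (86.2%, against 82.0%). CT010467.2 differed between the 2 runs, A and B, that the file headers name. It had 1029 and 1533 counts in the 2 WT untreated libraries of run B and 552, 402 and 510 in the 3 Setd8-LKO libraries of that run, but 15636, 12980 and 9985 in the 3 WT untreated libraries of run A and 6859 in the Setd8-LKO library of run A (log2 fold change -1.98 ± 1.06, adjusted p = 0.482). Within each run the Setd8-LKO libraries were lower, and a fit that included the run gave a change of -1.20 (edgeR adjusted p = 0.00239). Without Setd8-LKO replicate 4, the library of run A, it was -4.08 (edgeR adjusted p = 0.0114).

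Hsp25-ps1, a copy of the heat shock gene Hspb1, differed between the runs in WT untreated, while its 5 WT TCPOBOP libraries spanned 123 to 163 counts. It had 85 and 90 counts in WT untreated of run B, 810, 595 and 235 in WT untreated of run A, and 97 to 232 in the 9 treated libraries, so the fitted decreases of -1.34 and -1.35 were not called and turned to 0.71 and 0.72 within run B. Gm11212, most like the acute phase gene Orm1, spanned 2 to 136 counts in WT untreated, 365 to 830 in WT TCPOBOP and 142 to 215 in Setd8-LKO. Its groups did not overlap, yet neither change was called (3.17 ± 0.82, adjusted p = 0.0916, and 1.40 ± 0.80, adjusted p = 0.588). Gm49421 (231, 241, 80, 83 and 145 counts, and 233, 802, 239, 411 and 491 in WT TCPOBOP) and Gm50454 in WT TCPOBOP (-1.43, adjusted p = 0.0787) were not called either, whereas Gm50454 in Setd8-LKO fell from 56 to 175 counts to 4 to 9 (-4.18 ± 0.43). Gm7096 had 1 to 3 counts in WT untreated, 7 to 20 in WT TCPOBOP and 10 to 24 in Setd8-LKO and failed the filter in both comparisons.

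Of the 5 pseudogenes on the WT TCPOBOP list alone, 4 were called. Gm9797, most like Timm8a1, rose from 251 to 337 counts to 771 to 875 (1.54 ± 0.14), Gm7463, most like Prelid3b, from 41 to 83 to 154 to 314 (2.01 ± 0.29), and Gm12978 from 14 to 24 to 36 to 73 (1.55 ± 0.27). With DESeq2 and TMM factors from the listed genes these calls were lost. The changes were then 0.36 and 0.29 for Gm9797, 0.85 and 0.77 for Gm7463, and 0.38 and 0.30 for Gm12978. Gm18103, most like the ribosomal protein gene Rps3a1, fell from 88 to 212 counts to 24 to 64 (-1.43 ± 0.33, adjusted p = 0.0443). Its call was lost when any WT TCPOBOP library or WT untreated replicate 2, 4 or 5 was left out (adjusted p 0.0661 to 0.134, edgeR). Gm21451, an unprocessed copy of the lysyl oxidase gene Loxl2, rose in both comparisons, from 205 to 364 counts to 648 to 935 in WT TCPOBOP (1.47 ± 0.19) and to 982 to 1319 in Setd8-LKO (2.03 ± 0.18), beside 1.32 and 2.04 for Loxl2. In WT TCPOBOP the change of Gm21451 was 0.30 and 0.22 with DESeq2 and TMM factors, and the call was lost.

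Some entries repeat a signal. The 2 gene IDs named Gm9025 overlap on chromosome 13 and had equal read counts in 9 of 9 libraries. Gm19014 and Gm19015, copies of the elongation factor gene Eef1g on chromosome 14 that do not overlap, also had equal counts in all 9 libraries, 89 reads each. Gm17383 and Gm3226, Tuba1b copies on different chromosomes, had 14153 and 14256 reads in all.

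The chromatin around the pseudogenes was described with the peak and island lists of WT untreated and Setd8-LKO TCPOBOP livers, 1 list per mark and group, so that the spread between mice is not known and no test was made. H3K27ac, a mark of active promoters and enhancers, had a peak within 1000 bp of 30 of the 217 pseudogenes in WT untreated (13.8%) and of 68.2% of the 3896 other listed genes. In the Setd8-LKO list the shares were 15.2% and 72.3%. Open chromatin by ATAC-seq was near 13.8% and 63.6% in WT untreated and near 10.1% and 59.0% in Setd8-LKO. The insulator protein CTCF and the cohesin subunit Smc3 were near 2.30% and 4.61% of the pseudogenes in WT untreated and near 7.37% and 12.9% in Setd8-LKO, while the other listed genes went from 17.9% and 37.1% to 52.9% and 66.7%. The paper reports many new CTCF and Smc3 sites across the genome of Setd8-LKO livers, with weaker binding. It estimates that these are probably unstable and without function, so the rise in shares is not particular to the listed genes. The pseudogenes are shorter than the other genes (median span 1684 bp and 21280 bp), which bears on the chance of a nearby peak, and its part was not tested. Per the paper, reads of the chromatin data were kept only above a limit of mapping quality. Reads that fit a copy and its source alike may fail such a limit, here and for the islands below, and its part was not tested either.

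Islands of H4K20Me3, the trimethyl form of the residue that Setd8 monomethylates and a mark of silent repeats, went the other way. They overlapped 44 pseudogenes in WT untreated (20.3%) and 4.03% of the other listed genes, and 42 (19.4%) and 5.52% in the Setd8-LKO list. Lamin A/C islands overlapped 38 pseudogenes (17.5%, against 6.80%) and 29 (13.4%, against 5.34%). Both shares were larger for the pseudogenes although their spans are shorter. Among the 114 processed copies 25.4% and 21.9% lay in H4K20Me3 islands, 22.8% and 16.7% in Lamin A/C islands, and 5.26% and 6.14% had an H3K27ac peak nearby. Of the 45 transcribed pseudogenes 28.9% and 33.3% had an H3K27ac peak nearby.

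Several pseudogenes named above lay in islands of both kinds and in both lists, among them Ccnb1-ps, Tubb4b-ps1, Krt8-ps, Gm13502, Gm8730, Gm17383, Gm8834 and Gm18252. Gm13365, which lost its counts in Setd8-LKO, lay in an H4K20Me3 and a Lamin A/C island in WT untreated and in neither in the Setd8-LKO list. Gm11814, which rose, lay in an H4K20Me3 island in WT untreated alone. Islands were called in windows far wider than most processed copies, so they describe the region around such a copy. A link between islands and counts was not tested. The copies Gm3571, Gm5873, Gm8163 and Gm7979 lay in no island and had no H3K27ac peak in either list.

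**Figure D5:**
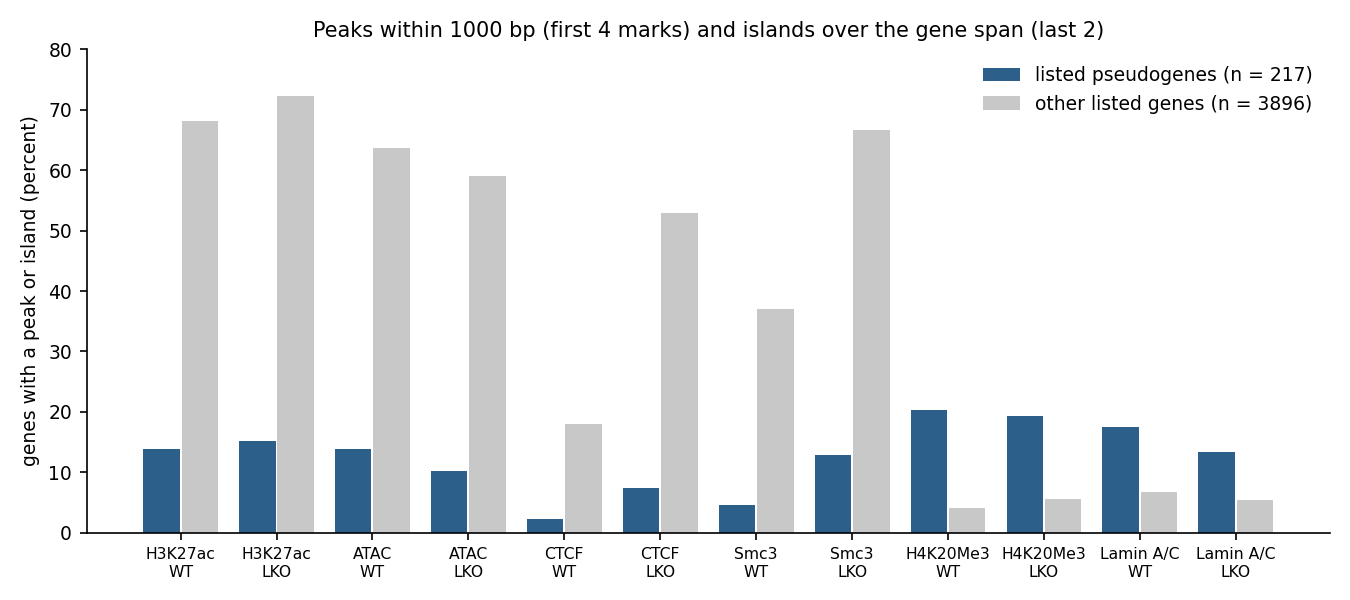
Percent of the listed pseudogenes (blue, n = 217) and of all other listed genes (grey, n = 3896) with a peak within 1000 bp (H3K27ac, ATAC, CTCF, Smc3) or an island over the gene (H4K20Me3, Lamin A/C), for the WT untreated list (WT) and the Setd8-LKO TCPOBOP list (LKO). Pseudogenes lie below the other genes for the first 4 and above them for the last 2.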

How the data were processed

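RNA-seq values came from the 2 deposited tables of genes that the authors had selected as changed (3900 and 719 genes). Per the file headers these hold raw read counts per gene, normalized counts (a rounded score, the raw count times 1 factor per library) and GC percent. Reads were aligned by the authors with HISAT2 to mm10 and counted and tested with metaseqR. How strand and reads with several places were treated in counting is not given in the sources used here. The peak lists deposited by the authors (MACS2 2.2.7.1) give a fold enrichment and −log10 p per peak, and the SICER islands a score. There was 1 list per condition, and pooling of replicates is not stated. Columns of the authors' own comparisons (fold changes and p-values) and transformed values, 114 columns in all, were not used.

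Raw counts were tested with edgeR 4.0.16 (R 4.3.3) by the quasi-likelihood test, with the authors' factors as scaling. Genes passed edgeR's filter at a minimum count of 10 on a scale of 40000000 reads. Benjamini-Hochberg adjustment took 20000 as the number of tests, since only selected genes were deposited. Calls needed an adjusted p under 0.05 and a log2 fold change of at least 1. Testing on simulated counts found 199 of 200 changed genes in each table, with 1 and 0 unchanged genes called. The 200 stood among 3743 tested genes for Setd8-LKO and 687 for WT TCPOBOP. Recovery in lists where most genes are called, like those used here, was not tested. Recovery at log2 fold changes close to 1 or at low counts is not given separately. Exact permutation tests were two-sided. The direct comparison of the treated groups was added after the data were seen.

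Source genes were found with blastn 2.17.0 against GENCODE M21 protein-coding transcripts (GRCm38). Of the 217 pseudogenes, 7 were not in that annotation. The members and gene lists were chosen with earlier results of these data known. Genes named were the 6 largest rises and 6 largest falls of the Setd8-LKO list among called pseudogenes without overlap, the 4 and 4 of the WT TCPOBOP list, the 5 with the highest counts in each list, the highest of each class, pseudogenes in both lists, those not called where at most 10, and up to 10 whose symbol names a listed gene with -ps, with their source genes. Copies of 1 source gene with at least 2 members, and the other pseudogenes described, were named after their values were seen. Alternatives covered scaling, the test (DESeq2 1.42.0), the filter, the adjustment, run, replicate block, single libraries, source gene limits and peak limits. Ratios from 1 to 3 reads carry 95% exact intervals, which cover counting error only.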

Additional observations from a re-analysis of the deposited data

Results flagged for a closer look

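Among 127 groups of 4 or 5 libraries, 11 held a library far from the others by Dixon's limit. Chance gives about 1 in 20 for normally distributed values. Small counts are not such values and some groups share reads, so the share here cannot be set against that rate. Gm3571 had 419 normalized counts in Setd8-LKO replicate 2 against 217 to 247 in the others, and Bhmt-ps1 had 7088 in WT TCPOBOP replicate 2 against 1752 to 2784. Gm8834 and Gm18252, which share their reads, had 6020 in WT TCPOBOP replicate 4. CT010467.2 had 6859 in Setd8-LKO replicate 4, the library of run A, against 402 to 552 in the libraries of run B. At low counts, Gm5639 had 50 in Setd8-LKO replicate 3, Gm8617 had 11 in Setd8-LKO replicate 1, Gm7096 had 3 in WT untreated replicate 2, and Gm8199, Bod1-ps and Obox4-ps3 had 1 count in a single library of a group otherwise at 0.

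The treated groups lay on opposite sides of WT untreated in 6 pseudogenes. The mean log2 value in WT TCPOBOP exceeded that in Setd8-LKO TCPOBOP by 4.26 for Gm7979, 3.66 for Gm5873, 3.66 for Gm8163, 3.64 for Gm3571, 2.95 for Gm6781 and 2.5 for Gm13502. They were picked for having no overlap. Their exact permutation p of 0.0159 between the treated groups was therefore fixed in advance and is no evidence.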

How the results depend on the processing

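Scaling moved the results most. With DESeq2 size factors from the listed genes 26 pseudogenes were called higher in Setd8-LKO, the median log2 fold change of the named pseudogenes, which went both ways, moved from 1.25 (47 of them) to -1.83 (45 that passed the filter) with 0 of all tested pseudogenes changing sign, and in WT TCPOBOP 7 were called, 1 of them higher. TMM factors gave the same 7 and 1 in WT TCPOBOP and turned Gm12138 there to -0.037. Adjustment over the listed genes alone gave 7 lower calls in WT TCPOBOP against 4. Leaving out 1 library gave 159 to 181 calls in Setd8-LKO (85 to 94 higher, 74 to 88 lower) and 20 to 23 in WT TCPOBOP (18 to 19 higher, 2 to 4 lower, with 2 lower without WT TCPOBOP replicate 3, 4 or 5 or WT untreated replicate 2). Hsp25-ps1 turned to 0.71 and 0.72 within run B. The DESeq2 and TMM factors came only from genes selected as changed, so these shifts cannot decide between the scalings. The cause of these shifts was not tested.

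Replicate numbers did not pair the libraries (correlations of same-numbered libraries -0.145 to 0.057 and -0.413 to 0.237). The replicate block gave 144 calls in Setd8-LKO and 17 in WT TCPOBOP, 2 of them lower, and Gm5424 in Setd8-LKO had an edgeR adjusted p of 0.0512.

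Class sums, as log2 of the treated over the untreated mean, depended on unit and on the top gene. As a share of raw counts the Setd8-LKO sums were 0.12 (all), 1.04 (processed), 0.46 (transcribed) and -0.49 (unprocessed), and without the gene with the highest count -0.62 (all), 0.15 (processed) and -0.98 (unprocessed). In WT TCPOBOP the shares gave -1.26 (all), -1.95 (processed), 1.03 (transcribed) and -0.56 (unprocessed), and leaving out the top gene gave 0.69, -0.081, 1.23 and 1.66. Without the top 2 genes, an alternative chosen after seeing the data, the Setd8-LKO sums were -0.49 (all), 0.57 (processed), 0.32 (transcribed) and -0.82 (unprocessed), and those in WT TCPOBOP 1.67, 1.40, 0.73 and 1.79. The processed and transcribed Setd8-LKO sums still held Gm8834 and Gm18252, respectively, which share their reads. H3K27ac peaks that overlapped the span of a processed copy had a share of 2.63% in both lists. Counts under 3 per library cannot show a decrease.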
